A study of Mus musculus with 28 samples.

Results

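Mid arteriovenous fistulas (AVFs) were compared with early AVFs by bulk RNA sequencing of single outflow veins. The comparison took the 13 bulk libraries labelled early (8) or mid (5), of 25 bulk libraries and 28 libraries in the series. All mice were C57BL/6 and had undergone 5/6 nephrectomy, and the AVF was made weeks later by sewing the cut jugular vein end-to-side onto the carotid artery, so both groups carried reduced kidney mass and an open fistula and differed in the time since anastomosis. The labels give day 3 for the 8 early AVFs (5 male, 3 female mice) and day 10 for the 5 mid AVFs (2 male, 3 female). The study's methods describe a wider spread of harvest days in the early group than in the mid group, and the age of the animals is not given in the sources used here. Each library was made from one ground vessel, so it held every cell type of the wall together with blood and adhering tissue. Contralateral jugular veins (7) and late AVFs (5, labelled day 21) of the same model are quoted as reference levels and did not enter the main test. They counted in the filter that chose the genes tested and in an alternative fit of all 25 bulk libraries.

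When a vein is opened to arterial flow, the injured wall is first entered by platelets, neutrophils, and monocytes, which clear debris and secrete chemokines, proteases, and protease inhibitors. Monocytes that enter the wall turn into macrophages. Fibroblasts and smooth muscle cells (SMCs) then deposit collagens, proteoglycans, basement membrane, and elastic fibers, the proteins that let a vein bear arterial pressure. The comparison of day 10 with day 3 asks which genes moved between these phases.

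Total counts per library ranged from 23676215 to 67457501 in early AVFs and from 27021483 to 33395623 in mid AVFs. Of 56980 genes, 12673 were tested, those averaging 100 or more DESeq2-normalized counts across the 25 bulk libraries. Levels are given as counts per 1000000 counts (CPM) scaled by the TMM method, which corrects each library for its composition. CPM is not divided by transcript length, so levels are compared between libraries and not between genes. Vessel wall markers were present in every library: *Acta2*, smooth muscle actin, ranged from 848 to 2210 CPM in early AVFs and from 1090 to 1780 CPM in mid AVFs, and *Pecam1*, an endothelial adhesion molecule, from 68.1 to 202 CPM and from 148 to 251 CPM.

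The mid AVFs were much alike and the early AVFs were not. The median Spearman correlation of a library with the other libraries of its group, across genes, was 0.954 to 0.964 in mid AVFs and 0.801 to 0.935 in early AVFs. Early AVFs 3, 5, and 6 stood apart: genes whose longest annotated transcript is under 1000 bases took 15.7, 19.5, and 21.5% of their counts, against 7.39 to 11.3% in the other early AVFs and 5.2 to 7.11% in mid AVFs. Counts on ribosomal protein genes were 4.43, 6.49, and 6.5% in these libraries, and between 1.4 and 3.31% in the other 10. Results are therefore given with all 13 libraries, without early AVFs 3, 5, and 6, and with an offset that removes each library's trend of level with transcript length. Early AVF 7 also correlated weakly with the mid AVFs (0.813), while early AVF 10 was the early library most like them (0.95). Blood and adhering tissue differed between single vessels. Thyroid and parathyroid genes summed to 14000 CPM in early AVF 1 and 1590 CPM in mid AVF 12 and to at most 226 CPM in the other libraries. Sympathetic neuron genes summed to 4500 and 3240 CPM in early AVFs 1 and 7, skeletal muscle genes to 5120, 6130, and 9030 CPM in early AVFs 1 and 10 and mid AVF 12, and erythroid genes to 18100 CPM in early AVF 6. None of the tested genes of these lists was called.

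**Figure D1:**
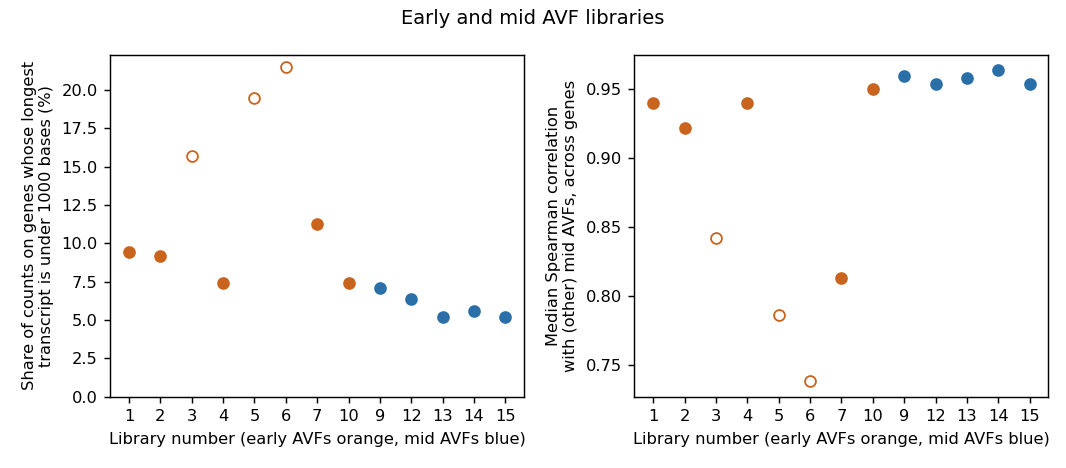
Share of counts on genes with a short longest transcript (left, %) and median Spearman correlation with the (other) mid AVFs across genes (right), for each early (orange) and mid (blue) library. Open points are early AVFs 3, 5, and 6, which hold 15.7, 19.5, and 21.5% of counts on short transcripts, while mid AVFs lie between 5.2 and 7.11%.

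With all 13 libraries, 1035 genes were called different (edgeR quasi-likelihood F test, adjusted *p* under 0.05 with a log2 fold change of 1 or more in either direction). Of these, 182 were higher in mid AVFs (1.44% of genes tested) and 853 were lower (6.73%). The groups did not overlap for 1099 genes: every mid AVF was above every early AVF for 387 genes (3.05%) and below for 712 (5.62%), and 109 and 470 of these were also called. The calls lay close to the threshold. The smallest adjusted *p* was 0.0346, shared by most called genes. Leaving out early AVF 3, early AVF 5, or any one of mid AVFs 9, 12, 13, 14, and 15 left 0 calls. The smallest adjusted *p* values were then between 0.0507 and 0.102. In these fits 1034 or all 1035 genes kept their direction, which is no separate support because they were selected in the same libraries. Leaving out early AVF 10 raised the count to 1475 calls and the genes that did not overlap to 813 higher and 1089 lower, and leaving out early AVF 4 gave 582 that did not overlap and were higher. With CPM scaled by library size alone, 616 genes were apart and higher and 510 apart and lower, so the direction of the larger share turned with the scaling. limma voom with sample quality weights called 472 higher and 265 lower, with the balance turned likewise.

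The balance of rises and falls differed between fits. Without early AVFs 3, 5, and 6 there were 230 calls, 127 higher and 103 lower, of which 170 were shared with the fit of all libraries. The genes that did not overlap went from 387 to 493 higher and from 712 to 777 lower. Leaving out libraries on the same CPM can only add such genes, so these counts do not show whether the balance held. With the length offset there were 254 calls, 67 higher and 187 lower, with 209 shared, and 983 of the 1035 genes kept their direction. The genes called in the same direction in all 3 fits numbered 99, of which 44 were higher (0.347%) and 55 lower (0.434%), and 34 and 39 of them did not overlap between groups. These genes are described first. Named genes outside the 15 largest rises, the 15 largest falls, and the gene lists were picked from these 99 after their values were seen. Unless another value is given, a called gene named below had an adjusted *p* of 0.0346 in the fit of all 13 libraries, fold changes are mid against early AVFs on the log2 scale with their standard error (SE), and mid values are in the order of AVFs 9, 12, 13, 14, and 15.

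*Chil3* and *Arg1* had the largest falls among the 99 genes, followed by *Crabp1*, described below, and *Ly6c2*. *Chil3*, a secreted chitinase-like lectin of monocytes and alternatively activated macrophages, ranged from 30.4 to 1700 CPM in early AVFs with a median of 345 CPM, and was 9.74, 5.93, 5.85, 8.43, and 16.6 CPM in mid AVFs. The groups did not overlap, and the log2 fold change was −6.05 (SE 1.08), −5.53 without early AVFs 3, 5, and 6 and −5.52 with the length offset. *Arg1*, the enzyme that splits arginine into ornithine and urea, had 36.1 to 2930 CPM in early AVFs (median 407) and 26.4, 11.5, 13.8, 29.3, and 25.8 CPM in mid AVFs. Its fold change was −5.22 (SE 1.10) and −3.79 without the 3 libraries, with the highest level in early AVF 6. *Ly6c2*, the surface antigen of inflammatory monocytes, fell by 3.50 (SE 0.74), from a median of 115 CPM to 25.3, 12.0, 14.2, 15.4, and 27.5 CPM. Fewer cells of a type and less RNA per cell cannot be told apart in such libraries. In contralateral veins these 3 genes averaged 2.42 ± 4.81, 4.77 ± 8.12, and 1.5 ± 1.67 CPM (SD, *n* = 7).

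Several receptors of myeloid cells, picked after their values were seen, are given next. *Fpr2* and *Fpr1*, receptors for formylated peptides of bacteria and mitochondria, fell by 3.13 (SE 0.60) and 2.54 (SE 0.45). *Fpr1* ranged from 28.3 to 197 CPM in early AVFs and was 19.4, 14.2, 14.2, 14.9, and 23.8 CPM in mid AVFs, so each mid AVF was below each early AVF. *Cxcr4*, the receptor for the chemokine CXCL12, fell by 1.96, and *Ccr1*, a receptor for inflammatory chemokines, by 1.38. The activating Fc receptors *Fcgr4* and *Fcgr1*, which bind antibody on phagocytes, fell by 2.07 and 2.06. The overlap differed among these receptors: *Fcgr4*, *Cxcr4*, and both *Fpr* genes were apart in every library, while *Ccr1* and *Fcgr1* overlapped.

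Members of 2 gene families, also picked after their values were seen, fell, and other members of these families are not described here. The *Ms4a* genes code for membrane proteins with several membrane spans, many of them on myeloid cells, and *Ms4a4c*, *Ms4a6b*, *Ms4a6c*, *Ms4a6d*, and *Ms4a8a* lie on chromosome 19 between 11067471 and 11604804 (GRCm38.p6, RefSeq). All 5 were lower in every mid AVF than in every early AVF, as were 5.62% of all genes tested. Being picked by their values, they do not describe the family. Their fold changes ran from −1.64 (*Ms4a6b*, SE 0.26) to −2.52 (*Ms4a4c*, SE 0.48). *Ms4a6d* ranged from 268 to 1120 CPM in early AVFs and was 192, 134, 154, 129, and 180 CPM in mid AVFs. *Sirpb1a*, *Sirpb1b*, *Sirpb1c*, and *Gm5150*, on chromosome 3 between 15371661 and 16006371, fell by 1.61 to 3.02, and the signal regulatory proteins they code for pair with activating adaptors in myeloid cells. Members of each family resemble one another, and how reads shared by copies were counted is not given in the sources used here, so the value of a single member is uncertain.

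The metallothioneins *Mt1* and *Mt2*, small proteins that bind zinc and copper and are induced by metals, glucocorticoids, and oxidative stress, lie next to each other on chromosome 8. *Mt1* ranged from 641 to 5580 CPM in early AVFs (median 2060) and was 426, 466, 410, 218, and 334 CPM in mid AVFs. All mid AVFs were below all early AVFs, with a fold change of −2.90 (SE 0.62), −1.76 without early AVFs 3, 5, and 6. *Mt2* had a fold change of −3.40 (SE 0.71), −2.06 without early AVFs 3, 5, and 6 and −1.53 with the length offset. Its groups touched at the edge, with 10.7 CPM both in the lowest early AVF and in mid AVF 12. Contralateral veins averaged 624 ± 370 CPM of *Mt1* (SD, *n* = 7), and single veins, from 349 to 1420 CPM, overlapped the mid AVFs. The bases before the RefSeq start of *Mt2* are shown because metallothionein genes are switched on through metal response elements. They lie on chr8:94172368-94172617 of GRCm38.p6, plus strand. Matches to the search pattern TGCNCNC on either strand are in capitals. The pattern allows any base at N and is looser than the core of the element.
Mt2: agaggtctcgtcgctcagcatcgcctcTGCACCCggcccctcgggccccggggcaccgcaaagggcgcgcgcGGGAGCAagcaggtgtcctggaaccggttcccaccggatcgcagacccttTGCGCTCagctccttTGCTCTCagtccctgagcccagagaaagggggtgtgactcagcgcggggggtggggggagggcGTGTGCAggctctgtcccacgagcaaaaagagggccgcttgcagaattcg
This window of 250 bases holds 5 matches that do not overlap one another. The *Mt1* window of the same length, not shown, holds 1 match, but it spans 94178839 to 94179088 while the RefSeq gene starts at 94178883. It reaches into the gene, so the counts of the 2 windows are not comparable. Of 32851 promoter windows of the same length, 44.4% hold at least 1 match and 0.344% hold 5 or more. A match is a run of letters, need not be a metal response element, and does not show that a factor was bound there.

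*Hmox1*, heme oxygenase 1, which breaks down heme from lysed red cells, fell by 1.89 (SE 0.30), from 129 to 538 CPM in early AVFs to 107, 79.6, 97.4, 108, and 93.4 CPM in mid AVFs. Of the 8 hypoxia-responsive genes, the list that holds *Hmox1*, 1 was lower and 1 higher (median −0.385), against 6.73 and 1.44% of all genes tested. The higher one was *Adm*, the vasodilator adrenomedullin, with 1.39 (adjusted *p* = 0.0367). *Saa3*, an acute-phase serum amyloid, fell by 3.39 (SE 0.76), and *Mif*, a cytokine that retains macrophages, fell by 2.77 (SE 0.65) with a fall of 1.37 without early AVFs 3, 5, and 6. *Timp1*, an inhibitor of metalloproteinases, was 413 to 2930 CPM in early AVFs and 311, 224, 225, 266, and 295 CPM in mid AVFs. Its fold change of −2.19 (SE 0.48) was −1.43 without early AVFs 3, 5, and 6 and −1.01 with the offset. *Spp1*, osteopontin, fell by 2.46 (SE 0.56) from a median of 3670 CPM to 1060, 613, 618, 1170, and 1100 CPM, and overlapped since the lowest early AVF had 1060 CPM. *Crabp1*, which binds retinoic acid in the cytosol, fell by 4.72 (SE 1.12) from a low median of 7.81 CPM and was listed at 0 in mid AVF 13. Less known genes completed the strongest falls, *Gm19951* with −3.05 and *Dmkn*, a secreted protein of epithelia, with −2.81.

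**Figure D2:**
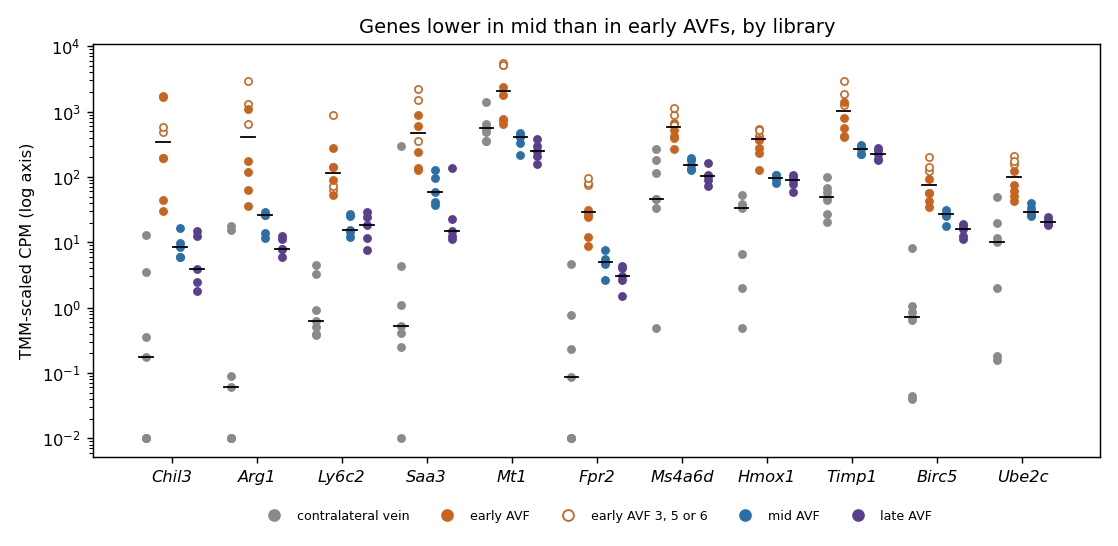
TMM-scaled CPM (log axis, values under 0.01 drawn at 0.01) of 11 genes that were lower in mid AVFs, with one point per library of contralateral veins, early, mid, and late AVFs and a bar at the group median. Early AVFs 3, 5, and 6 are open points. For every gene shown the 5 mid AVFs lie below the 8 early AVFs, as for *Chil3* with at most 16.6 CPM in mid and at least 30.4 CPM in early AVFs.

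Other falls ranked by size were not called with the length offset. *Pf4*, platelet factor 4, which macrophages can also express, fell by 4.11 (SE 1.00) with all libraries, by 2.00 without early AVFs 3, 5, and 6, and by 2.07 with the offset. Its level was 11500 CPM in the highest early AVF and 242, 153, 136, 231, and 191 CPM in mid AVFs. *Ppbp*, the other chemokine of platelet granules, was not called (−2.12, adjusted *p* = 0.0631), and 1 of 5 tested platelet genes was lower, against 6.73% of all genes. The platelet list summed to 4030, 9230, and 12500 CPM in early AVFs 3, 5, and 6, to 387 to 2570 CPM in the other early AVFs, and to 222 to 459 CPM in mid AVFs. *Wfdc17*, a secreted protein of activated macrophages, *Lst1*, a leukocyte transcript, and *Gm9733* had fold changes of −2.90, −3.03, and −2.94 and were not called with the offset either. The ribosomal pseudogene *Rpl13a-ps1* (−2.82, adjusted *p* = 0.0355) was called only with all libraries among these 3 fits.

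Of the neutrophil genes, 8 of 14 tested were lower and none was higher, against 6.73% of all genes called lower, with a median fold change of −2.02 over the list against −0.00431 over all genes tested. *Mmp8*, neutrophil collagenase, had a fold change of −3.49 (SE 0.69), −3.42 without early AVFs 3, 5, and 6. *Il1r2*, the decoy receptor for interleukin 1, fell by 2.54 (SE 0.55). *S100a8* and *S100a9*, subunits of calprotectin, fell by 3.21 and 2.86 with all libraries, and their falls of 2.02 and 1.81 without the 3 libraries did not pass. The summed neutrophil genes were 355 and 447 CPM in early AVFs 1 and 10, inside the 191 to 584 CPM of the mid AVFs, and 1670 to 5080 CPM in the other 6 early AVFs. No neutrophil gene was therefore apart in every library, and 2 were called in all 3 fits.

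The list of inflammatory monocyte and macrophage genes split in direction. Of 14 tested, 8 were lower and 2 were higher, against 6.73 and 1.44% of all genes tested, and the median was −1.61. The 2 that rose were *Mmp12*, macrophage elastase, and *Gpnmb*, a glycoprotein of lipid-laden and tissue-remodeling macrophages. *Mmp12* ranged from 49.1 to 350 CPM in early AVFs and was 725, 495, 592, 536, and 798 CPM in mid AVFs, a fold change of 1.82 (SE 0.39). *Gpnmb* rose by 1.22 (SE 0.26), from 116 to 363 CPM to 707, 422, 398, 478, and 553 CPM. Both were apart in every library while *Chil3*, *Arg1*, and *Ly6c2* of the same list fell. *Ccr2*, the chemokine receptor of monocytes, differed by −0.21 (SE 0.25, adjusted *p* = 0.575).

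Genes used as markers of alternatively activated macrophages also moved apart. *Mgl2*, a galactose-binding lectin of resident macrophages and dendritic cells, ranged from 0.0799 to 27.3 CPM in early AVFs and was 60.2, 47.2, 92.2, 69.5, and 77.8 CPM in mid AVFs. It rose by 2.77 (SE 0.73), with no overlap. *Retnla*, a secreted protein induced by interleukins 4 and 13, rose by 1.82 (SE 0.51, adjusted *p* = 0.0362), from a median of 36.4 CPM to 49.9, 121, 201, 138, and 121 CPM, with mid AVF 9 inside the early range. Contralateral veins averaged 143 ± 91.8 CPM of *Mgl2* and 2540 ± 1340 CPM of *Retnla* (SD, *n* = 7), so both rose from early levels far below those of the veins, while *Chil3* and *Arg1*, often grouped with them, fell.

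Broader macrophage genes fell less, and few calls held in every fit. Of 12 macrophage genes, 6 were lower with all libraries (median −1.06) and 1, *Fcgr1*, in all 3 fits. Over all genes tested these shares were 6.73 and 0.434%. *Lyz2*, lysozyme, differed by −0.89 (SE 0.31, adjusted *p* = 0.0649) and *Cd68* fell by 1.51 (adjusted *p* = 0.0347), but by 0.81 without early AVFs 3, 5, and 6, where it was not called. Among 10 resident macrophage genes 4 were lower and 2 higher, against 6.73 and 1.44% of all genes tested. *Cd163*, the receptor for hemoglobin and haptoglobin, fell by 1.48 (SE 0.37). *Ccl8* fell by 1.65 (SE 0.33) with no overlap, but differed by −0.45 with the length offset (adjusted *p* = 0.513). *Gas6*, a ligand of the receptors that engulf dead cells, rose by 2.04 (SE 0.51) and was not called without early AVFs 3, 5, and 6 (adjusted *p* = 0.0677). *Lyve1*, the hyaluronan receptor, differed by 0.23 (SE 0.42, adjusted *p* = 0.742).

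Of 16 tested cytokines and chemokines, 6 were lower with all libraries (median −1.48), against 6.73% of all genes tested. The list had 1 called lower without early AVFs 3, 5, and 6 (median −0.632) and none with the length offset (median −0.711). *Ccl2* and *Ccl7*, which attract monocytes, fell by 2.84 (SE 0.72) and 2.21 (SE 0.63, adjusted *p* = 0.0376). *Ccl7* reached 3530 CPM in early AVF 6 and was 212, 183, 187, 310, and 159 CPM in mid AVFs, above the early minimum of 243 CPM in mid AVF 14. *Il1b* and *Il1a*, the interleukin 1 ligands, differed by −0.70 (SE 0.36, adjusted *p* = 0.199) and −0.29 (SE 0.53, adjusted *p* = 0.741). None of 12 interferon-stimulated genes, 7 MHC class II genes, 8 T cell genes, or 6 B and plasma cell genes was called, with medians of −0.336, 0.655, 0.337, and −0.00312.

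Cell division genes were lower in 9 of 22 and higher in none (median −0.932), against 6.73% lower over all genes, and 2 calls held in all 3 fits, against 0.434%. *Ube2c*, the ubiquitin-conjugating enzyme of the anaphase-promoting complex, ranged from 43.4 to 208 CPM in early AVFs and was 39.5, 25.7, 25, 28.8, and 33.6 CPM in mid AVFs, a fall of 1.87 (SE 0.39). *Birc5*, survivin, fell by 1.87 (SE 0.41), from 34.8 to 203 CPM to 31.5, 24.8, 17.5, 27.2, and 27.5 CPM. *Cdk1*, the kinase of mitotic entry, and *Pcna*, the clamp of DNA replication, fell by 1.42 and 1.20 with no overlap. The most used proliferation marker was not called: *Mki67* was 30.2 to 78.4 CPM in early AVFs and 57.8, 51.1, 44.7, 58.3, and 45.4 CPM in mid AVFs, a difference of −0.16 (SE 0.25, adjusted *p* = 0.675). Its difference was −0.27 without early AVFs 3, 5, and 6 and −0.474 with the length offset, not called in either. Fold changes were negative in all 22 genes of the list, against 6371 of 12673 genes tested. *Top2a*, topoisomerase of dividing cells, differed by −0.71 (SE 0.23, adjusted *p* = 0.0530).

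Of 12 glycolysis genes 4 were lower and none was higher (median −0.867), against 6.73% of all genes called lower. No call of the list held without early AVFs 3, 5, and 6. *Pgk1*, phosphoglycerate kinase, fell by 1.17 (SE 0.24) with no overlap, *Gapdh* by 1.38 (SE 0.33), *Eno1* by 1.06 (SE 0.26), and the glucose transporter *Slc2a1* by 1.18 (SE 0.33, adjusted *p* = 0.0370). *Ldha*, lactate dehydrogenase, was 1120 to 2230 CPM in early AVFs and 872, 976, 858, 999, and 877 CPM in mid AVFs, with no overlap and a fold change of −0.83 that did not reach the fold required. Outside the list, *Psat1*, of serine synthesis, *Bcat1*, which transaminates branched amino acids, and *Tfrc*, the transferrin receptor that brings iron into cells, fell by 1.37, 1.05, and 1.19 and were called in all 3 fits, each with no overlap.

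Genes of the extracellular matrix follow by list, against 1.44% of all genes called higher. Of 15 elastic fiber genes, 4 were higher and none was lower (median 0.860). *Ltbp4*, a latent transforming growth factor-β binding protein needed for elastic fiber assembly, ranged from 29.3 to 114 CPM in early AVFs (median 40.5) and was 158, 178, 269, 229, and 132 CPM in mid AVFs. The groups were apart, with a rise of 2.02 (SE 0.31), 1.84 without early AVFs 3, 5, and 6, and 1.80 with the offset, and the highest early value was early AVF 10. *Fbln5*, fibulin 5, which links elastin to cells, rose by 1.63 (SE 0.38), from 63.2 to 342 CPM to 590, 452, 1000, 375, and 608 CPM. *Eln*, elastin, rose by 2.04 (SE 0.47) from a median of 518 CPM to 1980, 2370, 4920, 2510, and 2040 CPM. Early AVF 10 had 2060 CPM of *Eln*, inside the mid range, and the call was lost without early AVFs 3, 5, and 6 (1.76). *Fbn1*, fibrillin 1, differed by 0.86 (SE 0.41, adjusted *p* = 0.166). *Fbln7*, a cell-adhesive fibulin outside the list, rose by 2.53 (SE 0.54), from at most 40.8 CPM to 57.2, 66.3, 89.6, 71.4, and 97.5 CPM.

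Basement membrane genes were the list with the most members apart among the matrix lists tested. Of 14 genes, 4 were higher, none was lower, and 7 were above every early AVF in every mid AVF, against 3.05% of all genes tested (median 0.891). *Lamb2*, the laminin β2 chain of vessels and muscle, ranged from 27.3 to 73.1 CPM in early AVFs and was 104, 86.7, 187, 159, and 134 CPM in mid AVFs, a rise of 1.47 (SE 0.25). *Col4a5* rose by 1.74 (SE 0.37), from 6.77 to 45.3 CPM to 63.9, 77.3, 145, 58.1, and 66.7 CPM. *Col4a1*, one of the chains of the common network collagen, rose by 1.12 (SE 0.25) with no overlap and passed without early AVFs 3, 5, and 6 but not with the offset, where the rise was 0.88. Its partner *Col4a2* differed by 0.91 (SE 0.24, adjusted *p* = 0.0346), under the fold required for a call.

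None of 7 fibrillar collagens was called (median 0.960). *Col1a1* ranged from 241 to 5660 CPM in early AVFs and was 5930, 4160, 6730, 8140, and 8570 CPM in mid AVFs, a difference of 1.22 (SE 0.54, adjusted *p* = 0.136). *Col3a1* differed by 1.33 (SE 0.53, adjusted *p* = 0.0996) and *Col1a2* by 0.96 (SE 0.48, adjusted *p* = 0.185). Summed over the list, early AVFs ran from 2550 CPM in early AVF 7 to 35400 CPM in early AVF 10, and the mid AVFs from 32500 to 52400 CPM. Of 9 other collagens, *Col8a1*, of the subendothelial matrix, and *Col16a1* rose by 1.59 (SE 0.42) and 1.39 (SE 0.40, adjusted *p* = 0.0382), with folds of 1.31 and 1.07 without early AVFs 3, 5, and 6 that were not called (adjusted *p* = 0.0508 and 0.0689), and *Col14a1* was apart in every library with 1.68 (SE 0.54, adjusted *p* = 0.0518). *Col6a6*, of the microfibril-forming collagens, rose by 3.31 (SE 1.01, adjusted *p* = 0.0439), from 0 to 13.0 CPM to 20.6, 38.5, 29.2, 32.9, and 44.9 CPM. None of 17 collagen processing and crosslinking enzymes was called (median 0.246).

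Small leucine-rich proteoglycans had the highest median of the matrix lists, 1.61, with 2 of 9 called higher and 3 apart in every library. *Prelp*, which anchors basement membranes to connective tissue, ranged from 45.2 to 277 CPM in early AVFs and was 441, 307, 490, 445, and 310 CPM in mid AVFs, a rise of 1.82 (SE 0.40). *Lum*, lumican, a regulator of collagen fibril width, rose by 1.61 (SE 0.42), from 169 to 1390 CPM to 2170, 1640, 2110, 1920, and 2190 CPM. *Podn* was apart but not called with all libraries (2.15, SE 0.72, adjusted *p* = 0.0580). *Dcn* and *Bgn*, decorin and biglycan, differed by 1.17 (SE 0.42, adjusted *p* = 0.0714) and 0.92 (SE 0.29, adjusted *p* = 0.0511).

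Matricellular proteins, which act on cells rather than bear load, were higher in 5 of 14 (median 1.15), and 1 call held in all 3 fits. That gene was *Ccn1*, a secreted target of mechanical and growth factor signals, with 112 to 288 CPM in early AVFs and 622, 338, 345, 404, and 328 CPM in mid AVFs, a rise of 1.34 (SE 0.24). *Ccn3*, *Ccn5*, *Tnxb*, and *Comp* rose by 1.68, 1.42, 1.82, and 2.45 with adjusted *p* values of 0.0370, 0.0431, 0.0457, and 0.0376. *Postn* and *Tnc*, periostin and tenascin C of activated fibroblasts, were not called, with differences of 0.75 (SE 0.54, adjusted *p* = 0.357) and 0.84 (SE 0.42, adjusted *p* = 0.181).

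Of 4 tissue inhibitors of metalloproteinases, one rose, one fell, and the others were not called (*Timp2* 0.78, adjusted *p* = 0.0346, and *Timp4* −1.35, adjusted *p* = 0.0885). *Timp3*, which is bound to the matrix, ranged from 37.0 to 475 CPM in early AVFs and was 1090, 631, 1210, 1040, and 862 CPM in mid AVFs, a rise of 2.23 (SE 0.50), while the soluble *Timp1* fell. Both were apart in every library and called in all 3 fits. Over 18 tested metalloproteinases and TIMPs, 3 were higher and 3 lower, against 1.44 and 6.73% of all genes tested. Among them were *Mmp12* upward and *Mmp8* downward. *Mmp2*, gelatinase A of fibroblasts, was apart with 663, 458, 786, 750, and 740 CPM in mid AVFs against at most 415 CPM, but its early minimum of 0.133 CPM widened the spread (1.99, SE 0.96, adjusted *p* = 0.173), and *Mmp3* differed by 1.05 (SE 0.37, adjusted *p* = 0.0669).

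**Figure D3:**
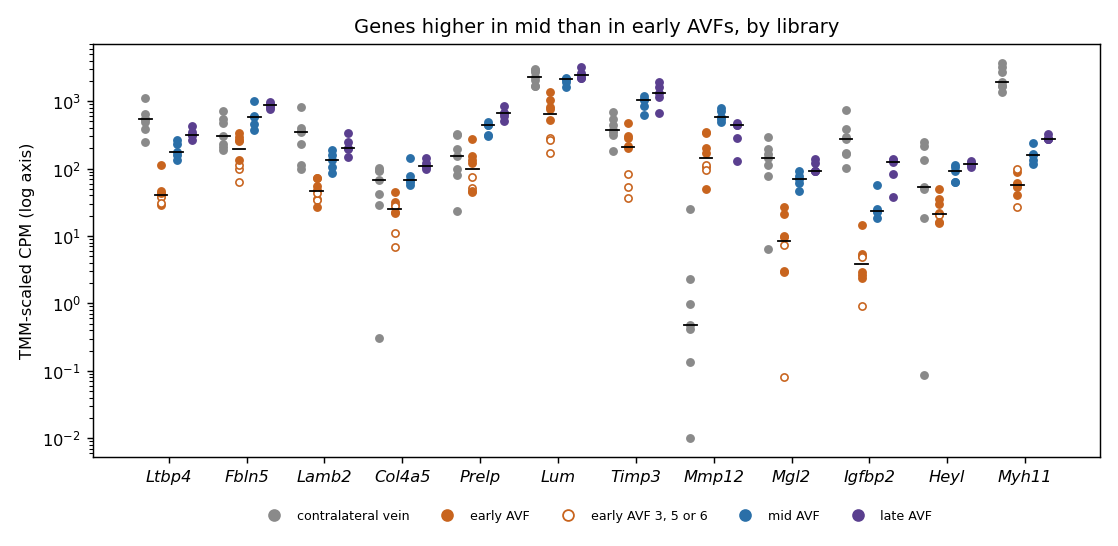
TMM-scaled CPM (log axis, values under 0.01 drawn at 0.01) of 12 genes that were higher in mid AVFs, with one point per library of contralateral veins, early, mid, and late AVFs and a bar at the group median. Early AVFs 3, 5, and 6 are open points. For every gene shown the 5 mid AVFs lie above the 8 early AVFs, as for *Ltbp4* with at least 132 CPM in mid and at most 114 CPM in early AVFs.

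Few mural cell genes of the contractile list were called. Of 15 SMC contractile genes 2 were called higher (median 0.331), against 1.44% of all genes tested, and 13 had a positive fold change. *Myh11*, smooth muscle myosin, ranged from 26.6 to 99.7 CPM in early AVFs and was 133, 119, 241, 167, and 158 CPM in mid AVFs, a rise of 1.44 (SE 0.27) that left it far below the 2340 ± 907 CPM of contralateral veins (SD, *n* = 7). *Acta2* differed by 0.05 (SE 0.24, adjusted *p* = 0.913), and *Itga8*, an integrin chain of SMCs, rose by 1.20 (SE 0.30). *Notch3*, a Notch receptor known from mural cells, rose by 1.46 (SE 0.36), from 3.36 to 22.4 CPM to 47.3, 24.0, 42.8, 32.3, and 31.3 CPM, and *Heyl*, a target of Notch signaling, by 1.75 (SE 0.28), from 15.5 to 49.6 CPM to 106, 64.3, 91.9, 62.7, and 115 CPM. *Ednra*, the endothelin receptor of SMCs, *Pdgfrb*, the platelet-derived growth factor receptor of mural cells and fibroblasts, and the potassium channel subunit *Kcne4* rose by 1.26, 1.43, and 1.43. These 5 genes were called in all 3 fits and were chosen after their values were seen.

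Of 15 endothelial genes 2 were higher (median 0.310), against 1.44% of all genes tested. In the other 2 fits both kept an adjusted *p* under 0.05 with a fold under that required. *Vwf*, von Willebrand factor, was 44.2 to 112 CPM in early AVFs and 123, 112, 174, 171, and 155 CPM in mid AVFs, a rise of 1.06 (SE 0.20). *Tek*, the angiopoietin receptor, rose by 1.06 (SE 0.24) with no overlap. *Pecam1* and *Cdh5*, VE-cadherin, differed by 0.64 (SE 0.25, adjusted *p* = 0.0918) and −0.94 (SE 0.36, adjusted *p* = 0.0900). *Mmrn1*, multimerin 1, which endothelial cells and platelets store, rose by 2.23 (SE 0.69, adjusted *p* = 0.0449), from at most 25.3 CPM to 69.7, 46.9, 34.6, 35.9, and 142 CPM.

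Few fibroblast genes and secreted regulators were called higher, against 1.44% of all genes tested. Fold changes were positive in 12 of 15 resting fibroblast genes and all 8 secreted Wnt modulators, against 6302 of 12673 genes tested. Of 15 resting fibroblast genes 1 was called higher with a list median of 1.11: *Gdf10*, a bone morphogenetic protein relative, rose by 1.32 (SE 0.31), from 24.7 to 103 CPM to 176, 117, 193, 159, and 122 CPM. *Pi16* and *Dpt*, markers of adventitial fibroblasts, differed by 1.95 (SE 0.81, adjusted *p* = 0.116) and 1.29 (SE 0.46, adjusted *p* = 0.0743). *Igfbp2*, which binds insulin-like growth factors, rose by 2.61 (SE 0.52), from 0.906 to 14.5 CPM to 56.7, 18.4, 22.9, 24.9, and 23.8 CPM, against 305 ± 216 CPM in contralateral veins (SD, *n* = 7). *Igfbp5* rose by 1.20 (SE 0.35, adjusted *p* = 0.0381), and *Igf1* differed by 1.15 (SE 0.48, adjusted *p* = 0.114). Of the 8 secreted Wnt modulators (median 1.07) *Dkk3* was called, with a rise of 1.26 (SE 0.31). *Sfrp2* of the same list differed by 1.80 (SE 0.58, adjusted *p* = 0.0533). *Nkd2*, an intracellular Wnt antagonist outside the list, rose by 1.77 (SE 0.36) with no overlap.

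Among the rises ranked by size, several genes had few reads in early AVFs. *Mlana*, a melanosome protein, was 0 to 0.235 CPM in early AVFs and 5.40, 1.42, 1.47, 1.16, and 0.439 CPM in mid AVFs (4.42, SE 1.02), against 26.6 ± 18.8 CPM in contralateral veins (SD, *n* = 7). *Slitrk6*, a transmembrane protein best known in the inner ear and neurons, was at most 2.04 CPM in early AVFs and 7.67, 11.3, 9.11, 2.45, and 22.3 CPM in mid AVFs (3.24, SE 0.70), and its vein level was 0.228 ± 0.401 CPM. *D630003M21Rik* rose by 3.30 at a mid level of 1.30 to 4.57 CPM. *Mamdc2*, a secreted proteoglycan, *Hr*, a nuclear corepressor, and *Itgbl1*, a secreted integrin-like protein, rose by 2.50 (adjusted *p* = 0.0431), 2.49, and 2.15, each with no overlap. *Col10a1*, a collagen of growth cartilage, had the largest rise of the genes called in all 3 fits, 5.44 (SE 1.10), with 28.4, 0.767, 11.1, 1.66, and 7.90 CPM in mid AVFs and at most 0.861 CPM in early AVFs, so that mid AVF 12 lay inside the early range.

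Immediate early genes were also among the rises called in all 3 fits, without being apart in every library. *Egr1*, a zinc finger factor induced by stretch and serum, ranged from 14.1 to 62.6 CPM in early AVFs and was 182, 99.9, 159, 196, and 32.6 CPM in mid AVFs, a rise of 2.16 (SE 0.39). *Nr4a1*, an orphan nuclear receptor, and *Gem*, a small GTPase, rose by 1.32 (SE 0.26) and 1.22 (SE 0.26). Mid AVF 15 had the lowest *Egr1*, *Nr4a1*, and *Gem* of the 5 mid AVFs. These genes were chosen after their values were seen.

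**Figure D4:**
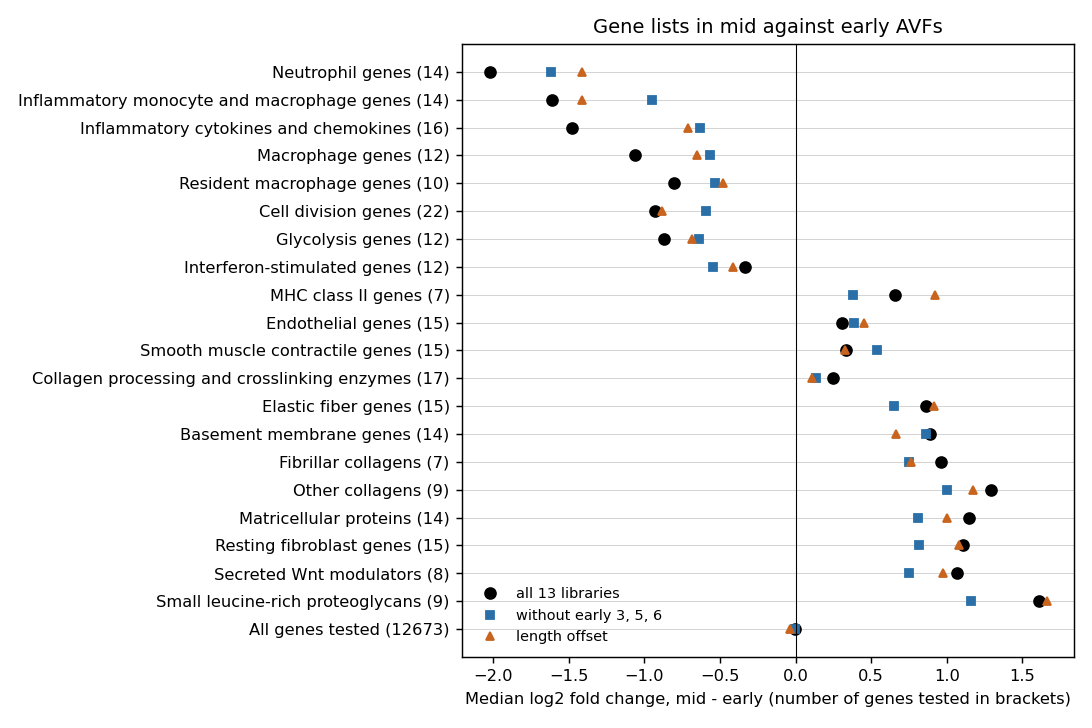
Median log2 fold change of mid against early AVFs over the tested members of 20 gene lists and over all 12673 genes tested, with all 13 libraries (circles), without early AVFs 3, 5, and 6 (squares), and with the length offset (triangles). The neutrophil list has a median of −2.02 and the small leucine-rich proteoglycans 1.61, against −0.00431 over all genes.

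Transcript length went with the fold change across the whole table. The Spearman correlation of the log2 fold change with the length of the longest annotated transcript was 0.408 across genes, 0.399 without early AVFs 3, 5, and 6, and −0.0159 with the offset, and these points share the same libraries. Of 98 genes under 500 bases, 54.1% were called lower, against 0.271% of 739 genes of 8000 bases or more. The median fold change ran from −1.83 to 0.251 between these bins, and from −0.683 to 0.204 without the 3 libraries. The median length was 1281 bases in genes called lower, 4366 bases in genes called higher, and 3430 bases in all genes tested. Ribosomal protein genes, which are short and chosen here after their values were seen, were lower in 69 of 76 with all libraries (median −1.72), in 1 without early AVFs 3, 5, and 6 (median −0.747), and in 9 with the offset (median −0.700). Of the 76, 70 were lower in every mid AVF than in every early AVF. Genes apart in all 13 libraries stay apart when libraries are left out, so this count does not bear on early AVFs 3, 5, and 6. With all libraries, 6.73% of all genes tested were called lower and 5.62% were apart and lower. Of the 12673 genes tested, 103 were called lower without early AVFs 3, 5, and 6 and 187 with the offset. Shares of counts on short transcripts moved with the groups as given above, and their part in these falls was not tested.

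**Figure D5:**
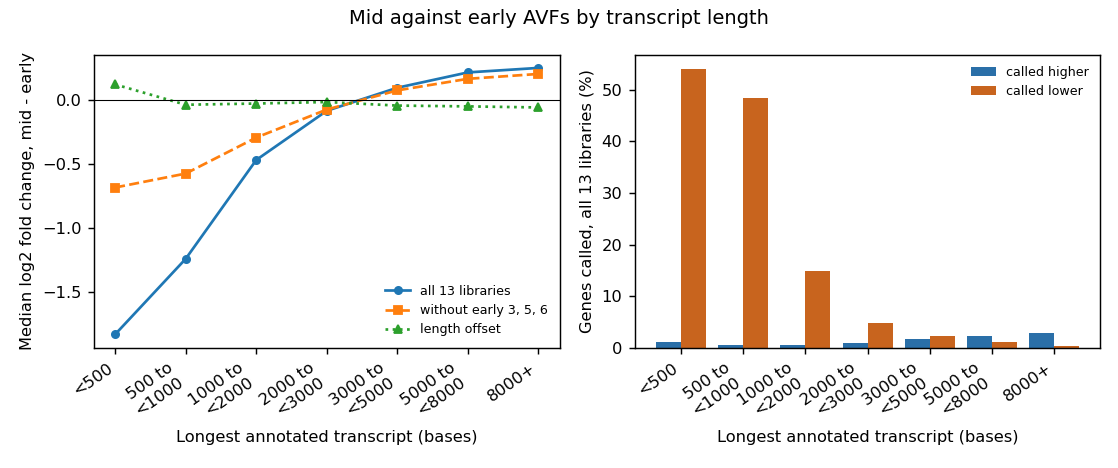
Left: median log2 fold change of mid against early AVFs in 7 bins of the longest annotated transcript, with all 13 libraries, without early AVFs 3, 5, and 6, and with the length offset. Right: percentage of genes in each bin called higher (blue) or lower (orange) with all libraries, with 54.1% called lower under 500 bases and 0.271% at 8000 bases or more.

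Sex differed in balance between the groups, with 3 of 8 early and 3 of 5 mid mice female. No gene had an interaction of sex and time at an adjusted *p* under 0.05 by edgeR (309 at an unadjusted *p* under 0.05) or by DESeq2 (438 unadjusted). With sex as a covariate no gene was called, with a smallest adjusted *p* of 0.0527 and 3728 genes at an unadjusted *p* under 0.05, and all 1035 genes kept their direction. In female mice alone (3 against 3) no gene was called and in male mice alone (5 against 2) 2 were, and 1034 and 1035 of the genes kept their direction. These fits reused the libraries in which the genes were called, so a kept direction is no separate support.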

How the data were processed

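Early and mid AVFs were compared as 13 bulk RNA-seq libraries, one ground vessel each. RNA was poly(A)-selected and sequenced by the authors, who deposited raw counts per gene for 25 bulk libraries. The submitters' processing notes name STAR, Cell Ranger, mm10, and GRCm38. Neither the labels nor the study's methods name the counting tool, its annotation, or its strand setting (not given in the sources used here), so reads of overlapping genes or near-identical copies cannot be assigned with certainty.

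Groups, sex, and nominal day came from the labels. Genes averaging 100 or more DESeq2-normalized counts across 25 libraries were kept (12673). The main test was the quasi-likelihood F test of edgeR 4.0.16 in R 4.3.3 with TMM scaling, fitted on 13 libraries across all genes kept. A gene was called at a Benjamini-Hochberg adjusted *p* under 0.05 with a log2 fold change of 1 or more in either direction. Depth was 23676215 to 67457501 counts per library. *P* values measure the spread between these vessels. Transcript length was the longest transcript in the GENCODE annotation of GRCm38, and the length offset was a lowess fit (span 0.3) of each library's log level on log length. Alternatives used DESeq2 1.42.0, limma 3.58.1, other filters and scalings, sex, and each library left out. The length offset and the joint removal of early AVFs 3, 5, and 6 were chosen after seeing the data. Scripts were tested on simulated data.

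Named genes were the 15 largest rises and 15 largest falls among genes called and not overlapping, the first 2 members of each list with up to 4 of its smallest *p* values, and others chosen after their values were seen. The members and lists were chosen with earlier results of these data known, and lists are described by counts and medians with no test. Promoter sequence is from RefSeq (GRCm38.p6). Some genes that met these rules are not reported here. Single-cell libraries were not analysed here.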

Additional observations from a re-analysis of the deposited data

Results flagged for a closer look

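Of 284 sets of one gene's values in one group, 31 held a library far from the others by Dixon's criterion, each time the highest. The criterion's rate of about 1 set in 20 assumes normally distributed values. These were CPM without logs, many of genes chosen for their changes, in the same 13 libraries. That rate therefore gives no expected count here. Early AVF 10 was the far library in 11, early AVF 6 in 8, and mid AVFs 9 and 13 in 4 each.

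Early AVF 10 was highest for genes that rose: *Col6a6* 13.0, *Igfbp2* 14.5, *Ltbp4* 114, *Eln* 2060, *Prelp* 277, *Ccn1* 288, *Ccn3* 583, *Col8a1* 355, *Gem* 42.2, *Cpxm2* 61.9, and *Itga11* 28.2 CPM. Early AVF 6 was highest for genes that fell: *Arg1* 2930, *Ly6c2* 882, *Gm5150* 140, *Dmkn* 80.2, *Ms4a4c* 535, *Fcgr1* 527, *Fcgr4* 208, and *Ccl7* 3530 CPM. Other early AVFs stood out for 3 genes that fell, AVF 5 with *Wfdc17* at 8300 and *Ccr1* at 346 CPM, and AVF 7 with *Cd5l*, a macrophage scavenger protein, at 39.5 CPM.

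Among mid AVFs, AVF 9 was highest for *Mlana* at 5.40, *Igfbp2* at 56.7, *Ccn1* at 622, and *Cdh5* at 54.6 CPM. AVF 13 was highest for *D630003M21Rik* at 4.57, *Eln* at 4920, *Col4a5* at 145, and *Itga8* at 293 CPM, and AVF 14 for *Mamdc2* at 34.1 CPM.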

How the results depend on the processing

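Of the 1035 called genes, 983 kept their direction with the length offset, 989 with the offset and without early AVFs 3, 5, and 6, and 1032 or more in each other fit. The genes were selected in these same libraries, so a kept direction is no separate support. None of 109 called genes followed through the alternatives changed sign under any alternative run, while counts of calls ran from 0 to 1475 as each library was left out (0 to 367 higher, 0 to 1108 lower). Against 1035 calls (182 higher, 853 lower), a fit of all 25 bulk libraries gave 380 (84 and 296) with the median of all genes moved to 0.13 on the log2 scale, and no filter on low counts gave 19 (5 and 14). DESeq2, which replaces outlying counts in the early group, called 278 higher, and limma voom with quality weights called 472 higher and 265 lower. Sex as a covariate, female mice alone, and an adjusted *p* under 0.01 each gave 0 calls, and male mice alone 2 (2 higher, 0 lower). The smallest adjusted *p* was 0.0527 with the sex covariate (3728 genes at an unadjusted *p* under 0.05) and 0.254 in female mice (2263). The length offset gave 254 calls (67 and 187), removal of early AVFs 3, 5, and 6 gave 230 (127 and 103), and both together 82 (43 and 39). Of the 109 genes, 83 kept the call without these libraries, 78 with the offset, 40 with both, and 107 by DESeq2. Genes not overlapping were 616 higher with library-size scaling, and 398 to 813 higher and 719 to 1089 lower as each library was left out. Leaving out a library can only raise these counts, since the CPM stayed the same. Uncalled genes changed sign in a few settings: *Mki67* to 0.245 and *Ccr2* to 0.0627 in female mice, and *Acta2* to −0.0908 in male mice. As each library was left out, *Acta2* ran from −0.057 (without mid AVF 9) to 0.169 (without early AVF 5), below 0 also without early AVF 7 or 10, and *Il1a* from −0.518 (without mid AVF 15) to 0.0658 (without early AVF 7). The cause was not tested. No paired analysis was possible because the early and mid AVFs share no replicate number.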
